A study of Rattus norvegicus with 72 samples.

Results

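Primary rat hepatocytes that had been given 2-nitrofluorene for 24 h were set directly against hepatocytes of the same D numbers that had been given piperonyl butoxide for 24 h. The comparison takes 6 of the 72 arrays in the series, 3 per compound, chosen by the compound and exposure time in their titles. 2-Nitrofluorene is a nitrated polycyclic hydrocarbon that the study counts among its genotoxic carcinogens, and it was given at 78 µM. Piperonyl butoxide, an insecticide synergist that blocks insect cytochrome P450, is counted among the non-genotoxic carcinogens and was given at 13.4 µM. The doses differ, so each difference is between these 2 treatments as given and not between the compounds at a matched dose. The cells came from collagenase-perfused rat liver and were kept as a monolayer. In all groups a first medium with serum and glucagon was replaced by serum-free medium with hydrocortisone and insulin, and exposure began 18 to 20 h after plating. The labels do not name the rat strain, sex, age or vehicle. Each title carries a D number (7, 8 or 9) and a replicate number (1, 2 or 3), and each D number occurs once with each compound. The study describes independent experiments for each compound. The pair of arrays with D number 7 is called pair 1, D number 8 is pair 2 and D number 9 is pair 3. Control cultures with the same D numbers and exposure time did not enter the main fit, and their levels are given only for reference. They entered only the alternative fits over 36 or 72 arrays, together with other compounds, where they bear on the estimated spread.

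The RNA was that of hepatocytes by its markers. Albumin (Alb) read 6055, 4948 and 6559 with 2-nitrofluorene and 5915, 5062 and 6846 with piperonyl butoxide, in units of array intensity. None of the 7 measured hepatocyte markers was at the floor of the scale (an intensity of 3.117), and the median of their log2 differences was -0.057. The 6 arrays had median intensities between 18.7 and 20.2 and between 19.1% and 21.0% of probe sets at the floor. Their log2 values correlated at 0.957 to 0.984 over probe sets, and the 3′ to 5′ ratio of the actin control probe sets lay between 0.65 and 0.82 on the log2 scale. Across the 15240 probe sets tested the median difference was -0.013. With 3 arrays per group, precision is limited by their number.

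Several regulators of liver gene expression are read out by well known sets of target genes. PPARα is a nuclear receptor that binds fatty acids and fibrate drugs. In rat liver it drives genes that import, activate and oxidise fatty acids in mitochondria, peroxisomes and the endoplasmic reticulum. NRF2 is a transcription factor that is held down by KEAP1 until electrophiles or oxidants release it, and its targets make and use glutathione, reduce quinones and aldehydes, and supply NADPH. CAR and PXR are nuclear receptors for drugs and steroids that raise P450 enzymes of the 2B, 2C and 3A families, conjugating enzymes and carriers, and AhR is the receptor that raises Cyp1a1 and Cyp1a2. The p53 protein switches on arrest, apoptosis and repair genes after DNA damage.

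At 24 h 24 of 52 tested genes of the PPARα list and 17 of 36 of the NRF2 list were higher with 2-nitrofluorene, led by Acot1, Pdk4 and Angptl4 and by Gsta3 and Akr7a3. Lower with 2-nitrofluorene were 7 of 20 genes of the CAR and PXR list, 7 of 21 cholesterol genes, the chemokines Ccl2 and Ccl7, and Crp. Of the 15240 probe sets, 606 (3.98%) passed an adjusted p under 0.05 from limma. Of these, 283 (1.86%) were higher with 2-nitrofluorene and 323 (2.12%) were lower. The called rises had a median of 0.61 log2 and reached 3.87, with 63 at 1 or more. The called falls had a median of -0.58 and reached -1.62, with 35 at -1 or beyond. Counted as genes, each by its brightest tested probe set, 197 of 9080 were higher (2.17%) and 232 lower (2.56%). At an unadjusted p under 0.05 there were 3063 probe sets.

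**Figure D1:**
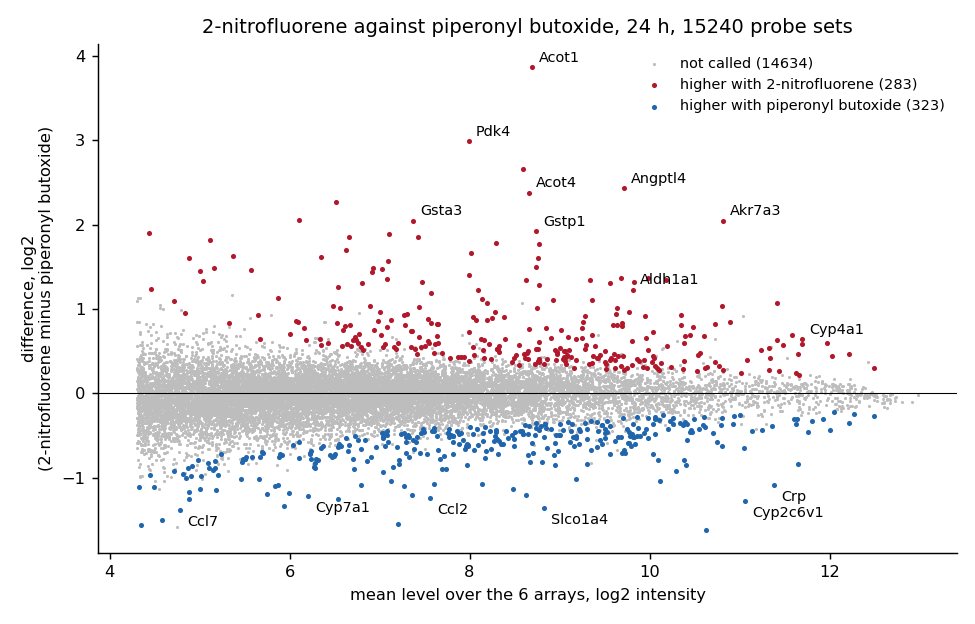
Each point is 1 of the 15240 tested probe sets, with its mean log2 intensity over the 6 arrays on the horizontal axis and the log2 difference, 2-nitrofluorene minus piperonyl butoxide at 24 h, on the vertical axis. Red points (283) were called higher and blue points (323) lower. The rises reach 3.87 log2 and the falls stop at -1.62.

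How many probe sets were called rested on pairing the arrays and on single pairs. Without the D number as a block, 16 were called. Genes called in that fit included Akr7a3, Defb1, Akr1b8, Nqo1, Cpt1a, Ugdh, Acot4, Acot1, Crp and Angptl4. Without pair 1 there were 12 calls, without pair 2 there were 1014 and without pair 3 there were 477. limma without an intensity trend or without the filter on low values called 0, with 2645 and 3488 probe sets at an unadjusted p under 0.05. With the spread estimated over the 36 arrays of D numbers 7 to 9, limma called 691, of which 442 were among the 606. Those 36 arrays include controls and other compounds at both times. Each of the 606 kept its direction under every setting tried.

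The PPARα list held the largest rises. Of its 64 genes, 57 had a probe set named for them alone and 52 were bright enough to test. Of those 52, 24 were higher with 2-nitrofluorene and 0 were lower, beside the 2.17% and 2.56% of all genes tested. This list, like the others, was chosen with earlier results of these data known, so its count is not an independent test. The median difference of the 52 was 0.42 and 48 differences were above 0, beside 47.4% of all tested probe sets. The group means of either compound stood above the controls in 51 of the 52 genes, which was not tested. At an unadjusted p under 0.05, limma had 32 of the 52 higher and 2 lower, beside 3063 of all 15240 probe sets in either direction. Among the 24 called genes, 23 had their smallest difference in pair 2, and in 22 of the 24 piperonyl butoxide read highest in pair 2. Over all 283 called rises the smallest difference was in pair 2 for 147. Without pair 1 no gene of the list was called (0 of 52), without pair 2 there were 39, and with the spread of 36 arrays there were 24.

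Thioesterases, which release fatty acids from coenzyme A, differed most, with 5 of 6 higher. Acot1, the cytosolic member, read 1297, 1371 and 2231 with 2-nitrofluorene in pairs 1, 2 and 3. It read 62.2, 246 and 83.3 with piperonyl butoxide and 2.09, 4.15 and 0.0933 in the controls. The groups did not overlap, as held for 16.2% of all tested probe sets, and piperonyl butoxide was highest in pair 2. The mean log2 levels were 10.63 ± 0.43 (SD, n = 3) and 6.76 ± 1.05 (SD, n = 3), a difference of 3.87 ± 0.36 (SE) or 14.6-fold, with an adjusted p from limma of 0.0021. Acot4, a peroxisomal thioesterase, read 874, 818 and 1095 against 187, 261 and 114, a difference of 2.38 ± 0.25 (adjusted p = 0.0033). Acot3 was higher by 1.62 ± 0.21 and Acot2, the mitochondrial member, by 1.32 ± 0.23. Acot12 was higher by 0.84 ± 0.15, while Acot8 differed by 0.16 ± 0.10 and did not pass (adjusted p = 0.43).

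Pdk4, the kinase that turns off pyruvate dehydrogenase and spares glucose, read 498, 1120 and 658 with 2-nitrofluorene and 42.7, 287 and 60.1 with piperonyl butoxide. Pair 2 was the highest in both groups. Each array of 2-nitrofluorene was above each of piperonyl butoxide, as held for 8.29% of all tested probe sets. The difference was 2.99 ± 0.27, or 7.93-fold (adjusted p = 0.0018). A dimmer probe set of Pdk4 gave a smaller rise, 1.85 ± 0.22 (limma, adjusted p = 0.0050). Angptl4, a secreted inhibitor of lipoprotein lipase, read 1827, 2297 and 1776 against 361, 594 and 223, a difference of 2.43 ± 0.16 (adjusted p = 0.00059). Creb3l3, a liver transcription factor of fasting, was higher by 0.82 ± 0.08, the lipid droplet coat gene Plin2 by 0.59 ± 0.13 and Gpd1 by 0.53 ± 0.07. Fgf21, a fasting hormone, differed by 0.85 ± 0.25 and did not pass (adjusted p = 0.11).

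The carnitine shuttle carries fatty acids into mitochondria, and 3 of its 5 genes were higher. Cpt1a, its rate-limiting enzyme in liver, read 980, 945 and 1169 with 2-nitrofluorene and 393, 466 and 364 with piperonyl butoxide, against 152, 255 and 207 in the controls. The 3 groups of arrays were apart from one another. Of all tested probe sets, 8.29% were higher with 2-nitrofluorene than with piperonyl butoxide without overlap. The compounds differed by 1.34 ± 0.12 (adjusted p from limma = 0.0017). Cpt2 was higher by 1.30 ± 0.14 and the carnitine importer Slc22a5 by 1.02 ± 0.13. Cpt1b, the muscle form, read 186, 238 and 194 against 113, 417 and 138. Its difference of 0.13 ± 0.25 did not pass, and pair 2 went the opposite way from pairs 1 and 3.

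Peroxisomal genes were higher in 5 of 8 cases and the ω-hydroxylases in 2 of 2. Ehhadh, the bifunctional enzyme of peroxisomal oxidation, read 3394, 3966 and 4600 with 2-nitrofluorene and 1257, 3263 and 1624 with piperonyl butoxide. Both were far above the control readings of 217, 180 and 161, and the compounds differed by 1.07 ± 0.20 (adjusted p = 0.031), with the compounds closest in pair 2. Crat, the carnitine acetyltransferase, was higher by 1.61 ± 0.25, Pex11a, which divides peroxisomes, by 1.36 ± 0.18 and Crot by 0.96 ± 0.17. Cyp4a1, a fatty acid ω-hydroxylase, read 4143, 3730 and 4610 against 2397, 3164 and 2459, with controls between 71.0 and 109. Its difference of 0.64 ± 0.11 (adjusted p = 0.025) lost its call with the spread of 36 arrays (adjusted p = 0.42). Of the mitochondrial oxidation enzymes 2 of 10 were higher: Acadm by 0.40 ± 0.09 and Etfdh by 0.41 ± 0.08. Fabp1, the liver fatty acid binding protein, differed by 0.42 ± 0.13 and did not pass (adjusted p = 0.12).

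**Figure D2:**
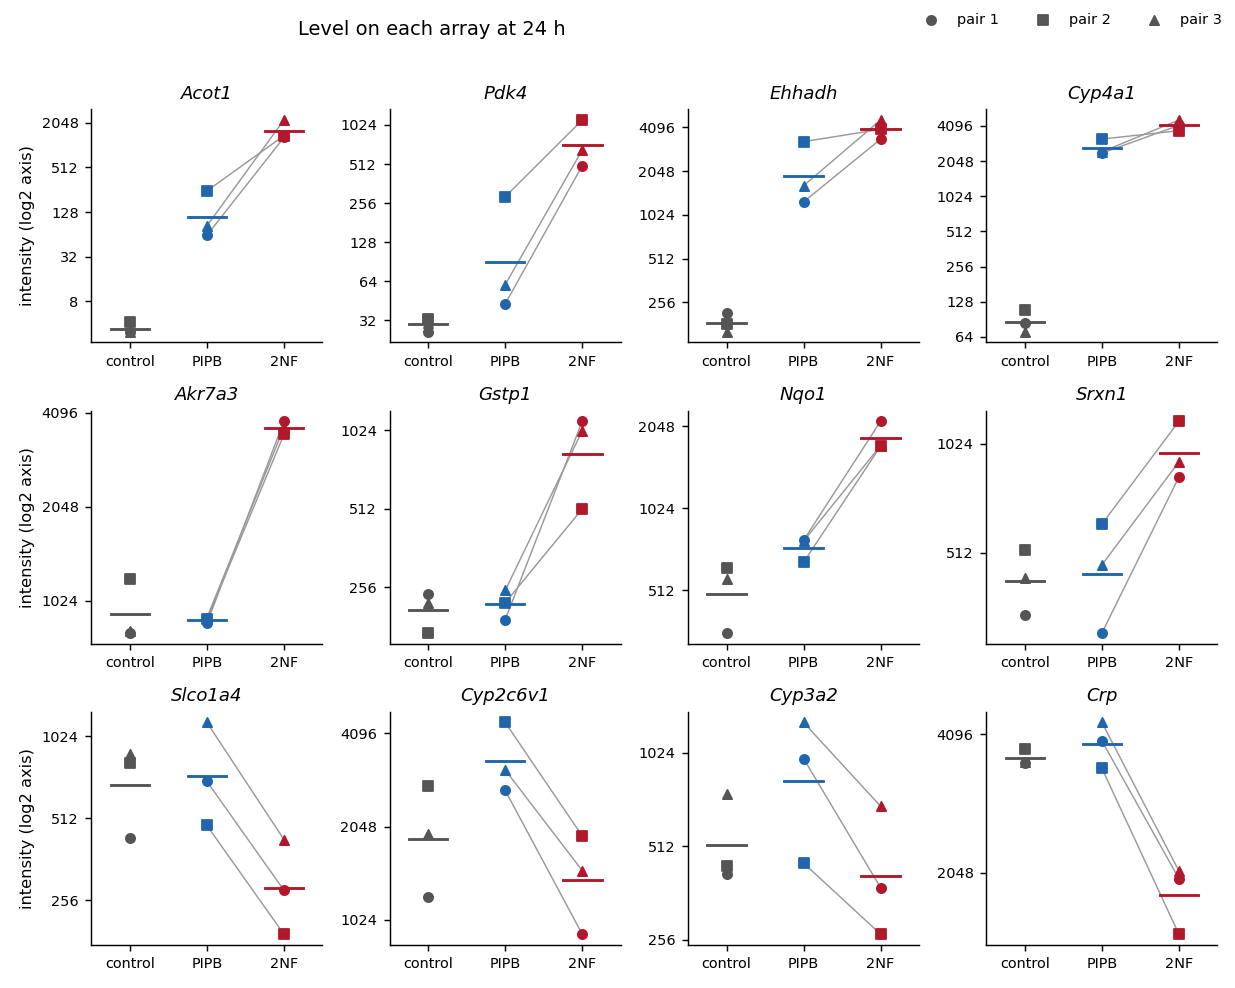
Intensity on each array at 24 h (vertical axis, log2 scale, values raised to a floor of 3.117) for 12 genes in control cultures, with piperonyl butoxide (PIPB) and with 2-nitrofluorene (2NF); the symbol gives the pair, grey lines join the 2 arrays of a pair and bars are geometric means of 3 arrays. Acot1, Pdk4, Ehhadh and Cyp4a1 rise from control to piperonyl butoxide to 2-nitrofluorene, while Akr7a3 and Gstp1 with piperonyl butoxide stand near the controls.

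The antioxidant and detoxifying genes of the NRF2 list formed the second group of rises. Of 36 tested members (44 listed, 37 measured), 17 were higher with 2-nitrofluorene and 2 were lower, beside 2.17% and 2.56% of all genes tested. The median difference was 0.41. With the spread of 36 arrays 16 were higher and 0 lower. Without pair 1 there were 3 calls. The median level with piperonyl butoxide was 0.087 log2 above the controls, beside 0.60 with 2-nitrofluorene, a description with no test. Of the 36 tested genes, 7 stand in another list too.

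Akr7a3, an aldehyde reductase that acts on aflatoxin dialdehyde, read 3845, 3488 and 3667 with 2-nitrofluorene and 868, 893 and 905 with piperonyl butoxide. The controls read 809, 1205 and 818. The difference of 2.04 ± 0.06, or 4.12-fold, had the smallest adjusted p of the comparison (8.3e-06) and was nearly equal in the 3 pairs (2.15, 1.97 and 2.02). Gsta3, a glutathione transferase, read 486, 233 and 339 against 120, 62.8 and 72.2, a difference of 2.05 ± 0.10 (adjusted p = 0.0002). Gstp1, the transferase known as a marker of preneoplastic foci in rat liver, read 1109, 511 and 1021 against 193, 223 and 249. Pair 2 gave the smallest of its differences, 1.19 beside 2.53 and 2.04, and the mean was 1.92 ± 0.21 (adjusted p = 0.0038). Nqo1, a quinone reductase, read 2135, 1729 and 1738 against 780, 648 and 775, a difference of 1.34 ± 0.07 (adjusted p = 0.0002). Arrays of the compounds did not overlap for any of these 4 genes; 8.29% of all tested probe sets were higher without overlap.

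Further reductases and antioxidant enzymes of the list were called. Akr1b8 was higher by 1.70 ± 0.11 and Ptgr1, which reduces reactive aldehydes, by 1.04 ± 0.11. Srxn1, which repairs peroxiredoxins, was higher by 1.11 ± 0.10, Txnrd1, the thioredoxin reductase, by 0.78 ± 0.07 and Ugdh, which makes UDP-glucuronic acid, by 0.79 ± 0.07. The genes of glutathione synthesis moved by about 0.5 log2 or less: Gss 0.51 ± 0.07, Gclc 0.44 ± 0.09 and Gclm 0.40 ± 0.09. Hmox1, the heme oxygenase, read 543, 1316 and 534 against 265, 1022 and 368, and passed at 0.65 ± 0.12 (adjusted p = 0.029), with overlapping groups and a higher value in each pair. The 2 lower members were the transferases Gstm3 (-0.50 ± 0.08) and Gstm2 (-0.32 ± 0.05).

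The promoters of these genes were searched for the core of the antioxidant response element, TGACNNNGC on either strand, in the 300 bases from 250 before to 50 after the annotated start (RefSeq, GRCr8). The motif was in 12.1% of all 33469 promoters in that table. Of the NRF2 list, 29 tested members matched 1 promoter, and 6 of them held the motif. Of the 11 called higher with a promoter, 4 held it (Gclm, Gstp1, Gpx2 and Ugdh). The 250 bases before the start are shown for 3 of these 4 genes, to place the motif, 5′ to 3′ on the gene's strand, with the motif in capitals. Gstp1 is on the minus strand at chr1:210769706-210769955, Gclm on the plus strand at chr2:213031885-213032134 and Gpx2 on the minus strand at chr6:101230034-101230283.
Gstp1: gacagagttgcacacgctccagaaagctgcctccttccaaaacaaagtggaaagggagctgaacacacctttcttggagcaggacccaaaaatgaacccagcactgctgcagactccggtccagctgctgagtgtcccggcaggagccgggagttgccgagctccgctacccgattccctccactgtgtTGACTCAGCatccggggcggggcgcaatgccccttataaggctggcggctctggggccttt
Gclm: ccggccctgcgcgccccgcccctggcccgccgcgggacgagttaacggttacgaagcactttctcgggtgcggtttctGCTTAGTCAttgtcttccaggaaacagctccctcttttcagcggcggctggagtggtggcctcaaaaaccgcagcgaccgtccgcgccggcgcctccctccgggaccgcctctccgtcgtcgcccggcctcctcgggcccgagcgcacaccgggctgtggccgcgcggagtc
Gpx2: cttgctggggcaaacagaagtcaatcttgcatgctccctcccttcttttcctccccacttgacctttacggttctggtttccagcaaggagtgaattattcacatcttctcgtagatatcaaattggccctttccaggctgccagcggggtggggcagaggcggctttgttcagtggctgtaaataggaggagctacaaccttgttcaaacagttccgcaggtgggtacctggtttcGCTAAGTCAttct
In Gstp1 the motif reads forward, TGACTCAGC, and begins 61 bases before the start. In Gclm and Gpx2 it reads on the opposite strand. A match describes the letters only. Gpx2, a glutathione peroxidase of epithelia, read 892, 300 and 121 with 2-nitrofluorene and 587, 183 and 95.2 with piperonyl butoxide, so that D numbers differed far more than compounds, and each pair rose (0.55 ± 0.10, adjusted p = 0.024). The same search for the direct repeat that PPARα binds, taken as AGGNCA repeated after 1 base, found it in 0.415% of all promoters and in 1 of 41 PPARα list members, Fabp1, and in 0 of the 21 called higher.

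Rises outside these lists were led by Colq (2.26 ± 0.30), which anchors acetylcholinesterase, and Nim1k (2.05 ± 0.27), a protein kinase. Slc34a2, a phosphate carrier (1.89 ± 0.16), and Slc17a3, an organic anion carrier (1.79 ± 0.15), followed, with Defb1, a defensin (1.85 ± 0.10), and Txnip, which binds thioredoxin (1.67 ± 0.15). Defb1 read 292, 360 and 336 with 2-nitrofluorene and 76.5, 93.5 and 104 with piperonyl butoxide, with no overlap. Of all tested probe sets, 8.29% were higher without overlap.

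**Figure D3:**
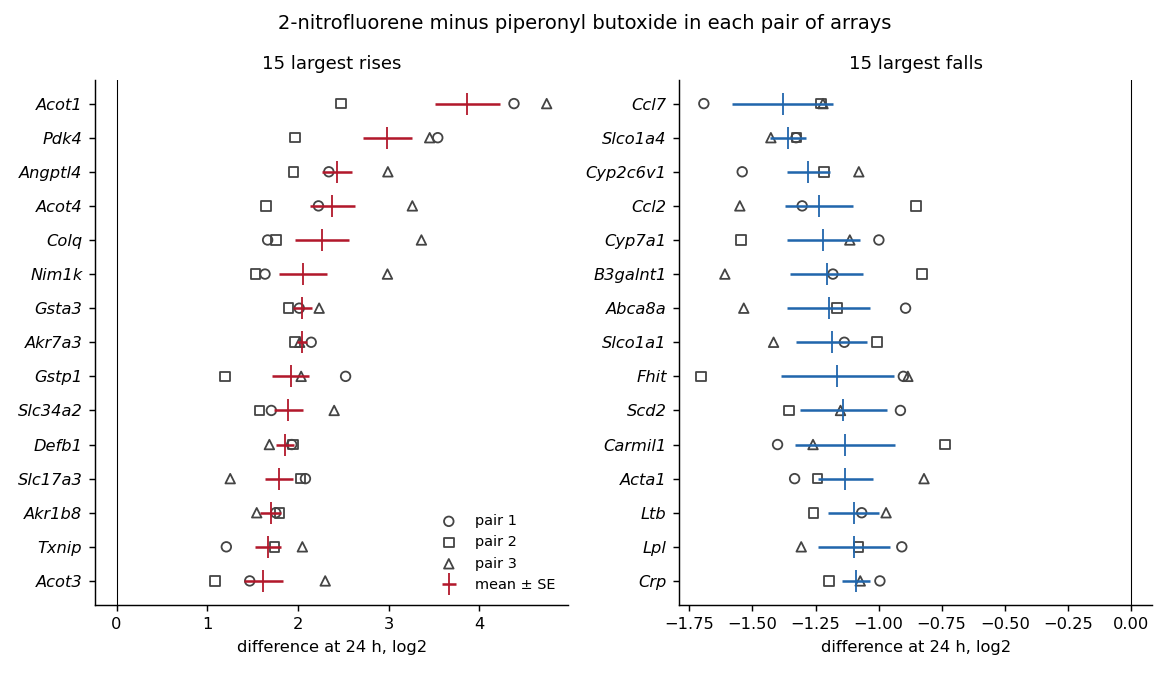
Log2 difference at 24 h, 2-nitrofluorene minus piperonyl butoxide, in each of the 3 pairs (open symbols) with the mean and its SE from limma (coloured bar) for the 15 largest called rises and the 15 largest called falls. Acot1, Pdk4 and Acot4 are smallest in pair 2, while Akr7a3 is nearly equal in the 3 pairs (1.97 to 2.15).

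Genes of the CAR and PXR list went both ways. The median difference of the 20 tested was -0.012. Of these, 7 were lower with 2-nitrofluorene and 4 higher, beside 2.56% and 2.17% of all genes tested. With the spread of 36 arrays there were 7 and 3, and without pair 1 there were 2 and 1. Slco1a4, an organic anion carrier, read 279, 192 and 428 with 2-nitrofluorene and 699, 482 and 1151 with piperonyl butoxide. The groups did not overlap, as held in that direction for 7.89% of all tested probe sets, and the pairs differed almost equally (-1.33, -1.33 and -1.43), with a mean of -1.36 ± 0.07 (adjusted p = 0.0002). The control cultures read 434, 817 and 881, with a mean log2 level of 9.41, beside 9.51 with piperonyl butoxide and 8.15 with 2-nitrofluorene.

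Cyp2c6v1, a drug-metabolising P450, read 921, 1910 and 1477 against 2680, 4441 and 3120, a difference of -1.28 ± 0.08 (adjusted p = 0.00059). Here the control mean of 10.87 log2 lay between 2-nitrofluorene (10.43) and piperonyl butoxide (11.70). Cyp3a2 read 376, 266 and 688 against 979, 451 and 1279. The groups overlapped, every pair fell, and the difference was -1.01 ± 0.11 (adjusted p = 0.0046). Ugt2b1, a glucuronosyltransferase, and Ces2c, a carboxylesterase, were each lower by 0.84 log2 (-0.84 ± 0.05 and -0.84 ± 0.09), and both were above the control mean with piperonyl butoxide and close to it with 2-nitrofluorene. Cyp3a18 (-0.79 ± 0.06) and Cyp2c7 (-0.62 ± 0.11) were also lower, the latter not with the spread of 36 arrays (adjusted p = 0.055). Cyp3a23-3a1 differed by -0.16 ± 0.05 and did not pass (adjusted p = 0.12).

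The 4 higher members were Aldh1a1, Alas1, Abcc3 and Ephx1. Aldh1a1, which makes retinoic acid, read 1994, 843 and 1555 with 2-nitrofluorene and 990, 336 and 610 with piperonyl butoxide, against 357, 87.0 and 142 in the controls. Pair 2 was lowest in every group, and the difference of 1.23 ± 0.08 (adjusted p = 0.00059) kept its call without pair 1. Alas1, the first enzyme of heme synthesis, was higher by 0.81 ± 0.08 and the efflux pump Abcc3 by 0.71 ± 0.13. Ephx1, an epoxide hydrolase, was higher by 0.30 ± 0.04 and did not pass with the spread of 36 arrays (adjusted p = 0.17).

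Of 5 tested genes of the AhR list, 1 was higher, Nqo1, which the NRF2 list holds too, beside 2.17% of all genes. Cyp1a1 read 2513, 2387 and 639 with 2-nitrofluorene and 957, 1863 and 595 with piperonyl butoxide, and between 166 and 439 in the controls. The compounds overlapped and differed by 0.62 ± 0.21 (adjusted p = 0.15). Cyp1a2 read 786, 1221 and 803 against 736, 1127 and 918, a difference of 0.0058 ± 0.0772 that did not pass.

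The cholesterol synthesis genes were lower with 2-nitrofluorene. Of 21 tested, 7 were lower and 0 higher, beside 2.56% and 2.17% of all genes tested. All 21 differences were below 0, with a median of -0.39. Over all tested probe sets 47.4% were above 0 at 24 h. With the spread of 36 arrays 8 were lower, and without pair 1 there were 0 calls. Idi1, which isomerises isopentenyl diphosphate, read 398, 358 and 348 with 2-nitrofluorene and 761, 627 and 606 with piperonyl butoxide. The groups did not overlap, as held in that direction for 7.89% of all tested probe sets. The difference was -0.85 ± 0.07 (adjusted p from limma = 0.0017). The control mean (8.91 log2) lay between 2-nitrofluorene (8.52) and piperonyl butoxide (9.37). Sqle, squalene epoxidase, was lower by -0.76 ± 0.08, Cyp51 by -0.72 ± 0.06, Msmo1 by -0.68 ± 0.09 and Fdps by -0.58 ± 0.05. In group means 19 of the 21 genes were above the controls with piperonyl butoxide and 6 with 2-nitrofluorene, which was not tested.

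Of 21 fatty acid synthesis genes 2 were higher and 4 lower, beside 2.17% and 2.56% of all genes tested. The median difference was -0.19. With the spread of 36 arrays 2 were higher and 1 lower. Elovl6, which lengthens palmitate, read 207, 220 and 226 against 105, 78.0 and 59.3, a rise of 1.47 ± 0.17 (adjusted p = 0.0047), and Dgat1 rose by 0.41 ± 0.08. Scd2, a fatty acid desaturase, fell by 1.14 ± 0.17, Fads1 by 0.81 ± 0.18 and Thrsp, a lipogenic regulator, by 0.71 ± 0.06. Acss2, which makes acetyl-CoA, fell by 0.40 ± 0.08. Scd2, Thrsp and Acss2 did not pass with the spread of 36 arrays (adjusted p = 0.066, 0.26 and 0.11).

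In bile acid handling 2 of 14 tested genes were higher and 4 lower, beside 2.17% and 2.56% of all genes tested. With the spread of 36 arrays 2 were higher and 2 lower. Cyp7a1, the rate-limiting enzyme of bile acid synthesis, read 61.0, 29.7 and 62.7 with 2-nitrofluorene and 122, 86.8 and 136 with piperonyl butoxide. Its difference of -1.22 ± 0.15 (adjusted p = 0.0055) did not pass with the spread of 36 arrays (adjusted p = 0.18), nor did that of Cyp27a1 (-0.28 ± 0.06, adjusted p = 0.25). Cyp8b1, which directs synthesis to cholic acid, read 466, 739 and 724 against 205, 415 and 181, a difference of 1.34 ± 0.19 (adjusted p = 0.01). The bile acid receptor Nr1h4 was higher by 0.87 ± 0.11. The uptake carrier Slco1a1 was lower by 1.19 log2 (-1.19 ± 0.14) and Abcb11, the bile salt export pump, by 0.67 (-0.67 ± 0.07).

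**Figure D4:**
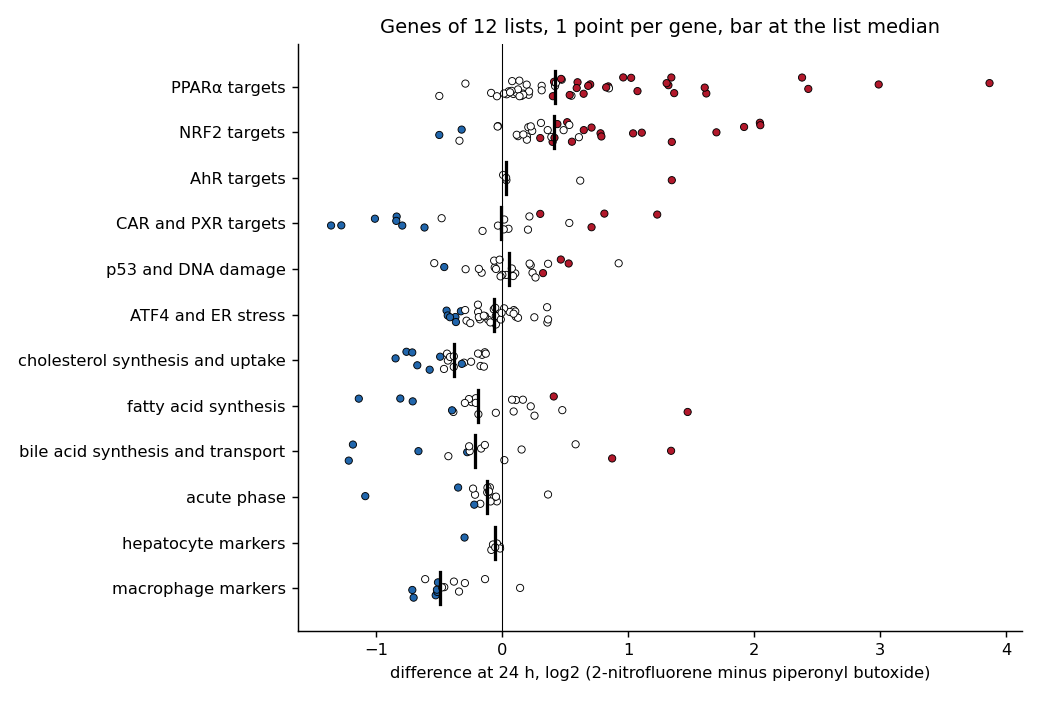
Log2 difference at 24 h (horizontal axis, 2-nitrofluorene minus piperonyl butoxide) for each tested gene of 12 lists, 1 point per gene, red where called higher, blue where called lower and white where not called, with a black bar at the list median. PPARα and NRF2 targets reach past 2 to the right, while the 21 cholesterol genes all lie left of 0.

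The chemokines Ccl2 and Ccl7, the acute phase protein Crp and 6 macrophage markers were also lower with 2-nitrofluorene; no list of chemokines was set up. Ccl2, the monocyte chemoattractant, read 273, 78.6 and 87.3 against 674, 142 and 256, a difference of -1.24 ± 0.13 (adjusted p = 0.0038). Ccl7 read 24.3, 12.6 and 16.2 against 78.6, 29.5 and 37.7, a difference of -1.38 ± 0.20. Both were highest in pair 1 in either group. Ltb, a cytokine of the lymphotoxin family, was lower by 1.10 log2 (-1.10 ± 0.10). Crp, C-reactive protein, read 1989, 1506 and 2066 against 3963, 3454 and 4346, a difference of -1.09 ± 0.06 (adjusted p from limma = 0.0002). Its groups did not overlap, as held in that direction for 7.89% of all tested probe sets. The controls of Crp read between 3553 and 3806, near the arrays of piperonyl butoxide. Of 15 tested acute phase genes 3 were lower (Crp, Cp and Serpina3n) and 0 higher, beside 2.56% and 2.17% of all genes tested. Cp and Serpina3n did not pass with the spread of 36 arrays (adjusted p = 0.14 and 0.57).

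The 14 tested macrophage markers had a median of -0.50. Beside 2.56% and 2.17% of all genes tested, 6 of the 14 were lower and 0 higher. They were Cd14 (-0.72 ± 0.09), Cd74 (-0.70 ± 0.11), Clec4f, C1qc, C1qb and Ctss. With the spread of 36 arrays 2 were lower, and Clec4f, which marks Kupffer cells, C1qb, C1qc and Ctss no longer passed (adjusted p = 0.42, 0.40, 0.37 and 0.28). The summed level of the 16 measured markers was 1056 to 1789 with 2-nitrofluorene, 1419 to 2462 with piperonyl butoxide and 1524 to 2594 in the controls. None of the 16 was at the floor on all 6 arrays, while Ptprc and Aif1 were below the filter. The part of macrophage RNA in the lower Ccl2 and Ccl7 levels was not tested, and in whole cultures fewer cells of a type and less RNA per cell cannot be told apart. Of the other cell types, 1 of 8 stellate cell markers (Col3a1), 1 of 2 bile duct markers (Epcam) and 0 of 5 endothelial markers were lower, and 0 were higher. The summed levels of the stellate list were 542 to 1131 with 2-nitrofluorene and 657 to 1271 with piperonyl butoxide. Those of the endothelial list were 335 to 446 and 321 to 442, and those of the bile duct list 658 to 913 and 859 to 1066. The bile duct markers Spp1 and Cldn7 were at the floor on all 6 arrays.

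The largest falls also held Abca8a (-1.20 ± 0.16), a lipid transporter, Lpl (-1.10 ± 0.14), lipoprotein lipase, and B3galnt1 (-1.21 ± 0.15), a glycosyltransferase. Fhit (-1.16 ± 0.22) did not pass with the spread of 36 arrays (adjusted p = 0.14). Acta1, an actin, was lower by 1.13 log2 (-1.13 ± 0.11). Among 20 cytoskeletal genes 3 were lower (Vim, Tagln2 and Tmsb4x) and 0 higher, beside 2.56% and 2.17% of all genes tested. Vim led them at -0.63 ± 0.09. Tmsb4x did not pass with the spread of 36 arrays (adjusted p = 0.13).

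In the DNA damage response some genes differed between the compounds at 24 h. Of 24 tested p53 targets 3 were higher (Plk2 0.53 ± 0.09, Gadd45a 0.46 ± 0.06 and Ei24 0.32 ± 0.06) and 1 lower (Bbc3, -0.46 ± 0.09), with a median of 0.053, beside 2.17% and 2.56% of all genes tested. The p53 inhibitor Mdm2 read 290, 408 and 279 with 2-nitrofluorene and 236, 391 and 335 with piperonyl butoxide, overlapping, a difference of 0.031 ± 0.111 (adjusted p = 0.91). Dimmer probe sets of Mdm2 differed by 0.23 ± 0.14 and 0.30 ± 0.11 and did not pass in limma either (adjusted p = 0.42 and 0.20). The cell cycle inhibitor Cdkn1a read 631, 1082 and 773 against 573, 791 and 708. Each pair was above 0, and the difference of 0.24 ± 0.08 did not pass (adjusted p = 0.15). A dimmer probe set of Cdkn1a differed by 0.031 ± 0.095 (limma, adjusted p = 0.89). Gdf15, a secreted stress protein, differed by 0.92 ± 0.23 and did not pass (adjusted p = 0.072). Of 13 tested cell cycle genes, out of 28 measured, 0 passed in limma. At an unadjusted p under 0.05, 3 were higher and 1 lower, beside 3063 of all 15240 probe sets in either direction.

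Beside 2.56% and 2.17% of all genes tested, 6 of the 35 genes of the ATF4 and endoplasmic reticulum stress list were lower and 0 higher. They were the chaperones and folding enzymes Hsp90b1 (-0.44 ± 0.05), Pdia6 (-0.43 ± 0.08), Manf (-0.42 ± 0.06), Calr (-0.37 ± 0.06) and Pdia4 (-0.33 ± 0.07), and the factor Xbp1 (-0.37 ± 0.06). Hsp90b1 read 1947, 1756 and 2091 against 2567, 2426 and 2886, with controls between 2947 and 3290. The 11 amino acid genes of the list had 0 calls, and Ddit3 differed by -0.052 ± 0.120.

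Of 29 genes of hepatocyte function 1 was higher (Cyp2e1, 0.61 ± 0.11) and 2 were lower (Cyp2c11, -0.85 ± 0.14, and Ahsg, -0.30 ± 0.06), beside 2.17% and 2.56% of all genes. Cyp2c11, the male-specific P450 of rat liver, read 141, 359 and 129 against 280, 473 and 290. None of these 3 passed with the spread of 36 arrays (adjusted p = 0.37, 0.063 and 0.14). Of 12 genes of glucose metabolism 1 was lower, the glucose carrier Slc2a2 (-0.48 ± 0.08).

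Arrays of the same D numbers after 72 h gave the comparison at a second time. There 2014 of the same 15240 probe sets (13.2%) were called, 940 (6.17%) higher and 1074 (7.05%) lower. Without pair 3 there were 814, and with the spread of 36 arrays 1088. Of the 283 higher at 24 h, 256 had the same sign at 72 h and 197 were called the same way, with 3 called the opposite way. Of the 323 lower at 24 h, 268 had the same sign, 168 were called the same way and 11 the opposite way. Over all tested probe sets 41.5% were above 0 at 72 h and 58.5% below. The 2 comparisons share D numbers but no arrays. The difference between the 2 times was called for 315 probe sets (2.07%), 249 (1.63%) upward and 66 (0.433%) downward, with 99 calls without pair 1, 116 without pair 3 and 143 with the spread of 36 arrays.

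In the PPARα list some genes stood further apart at the later time. At 72 h 49 of the 52 were higher with 2-nitrofluorene, with a median of 1.27, beside 7.39% of all genes tested, and 26 of the 52 had a called upward difference between the times, beside 2.22% of all genes. Acot1 read 1941, 1223 and 2950 with 2-nitrofluorene at 72 h and 11.4, 6.16 and 12.7 with piperonyl butoxide, a difference of 7.64 ± 0.11 that exceeded the one at 24 h by 3.77 ± 0.44 (adjusted p = 0.0016). Ehhadh read 4546, 3182 and 6025 against 296, 200 and 607. Its difference of 3.75 ± 0.11 was larger than at 24 h by 2.68 ± 0.28 (adjusted p = 0.0013). With 2-nitrofluorene the mean log2 level of Ehhadh was 11.95 at 24 h and 12.11 at 72 h, while with piperonyl butoxide it was 10.88 and 8.37. Cyp4a1, Fabp1 and Cpt1b had differences of 2.60 ± 0.08, 2.17 ± 0.10 and 2.71 ± 0.19 at 72 h, each with a called change between times. Pdk4 (3.88 ± 0.20), Acot4 (2.26 ± 0.09) and Cpt1a (1.48 ± 0.09) had no called change.

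Several NRF2 genes stood closer together at 72 h. At 72 h 13 of the 36 were higher and 2 lower (7.39% and 7.67% of all genes), with a median of 0.12, and the change between times was called downward in 8 and upward in 1, beside 0.507% and 2.22% of all genes. Srxn1 went from 1.11 to 0.061 ± 0.135, Txnrd1 from 0.78 to 0.13 ± 0.07 and Nqo1 from 1.34 to 0.45 ± 0.09. Akr7a3 (1.32 ± 0.08) and Gsta3 (1.17 ± 0.11) stayed higher at 72 h though less so. Gstp1 did not follow them, at 2.29 ± 0.07 with no called change between times (adjusted p = 0.52).

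Of the 323 probe sets lower at 24 h, 11 were called higher at 72 h, among them those of Cyp3a2, Scd2 and Fdps. Fdps went from -0.58 to 0.30. Cyp3a2 read 1547, 433 and 2652 with 2-nitrofluorene and 752, 328 and 1150 with piperonyl butoxide at 72 h, a difference of 0.88 ± 0.12. Its change between times was 1.89 ± 0.20 (adjusted p = 0.0013). Scd2 went from -1.14 to 1.23 ± 0.09. Crp (-0.046 ± 0.075), Slco1a4 (-0.21 ± 0.12) and Idi1 (-0.10 ± 0.07) did not pass at 72 h, each with a called change. Cyp2c6v1 (-1.04 ± 0.19) and Ugt2b1 (-0.67 ± 0.07) stayed lower, as did Ccl2 (-0.74 ± 0.09) and Ccl7 (-1.04 ± 0.17). Of the 21 cholesterol genes 4 were higher and 1 lower at 72 h, beside 7.39% and 7.67% of all genes, with 8 called upward changes between times (2.22% of all genes). Of the 14 macrophage markers 10 were lower at 72 h, beside 7.67% of all genes, with a median of -0.68.

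**Figure D5:**
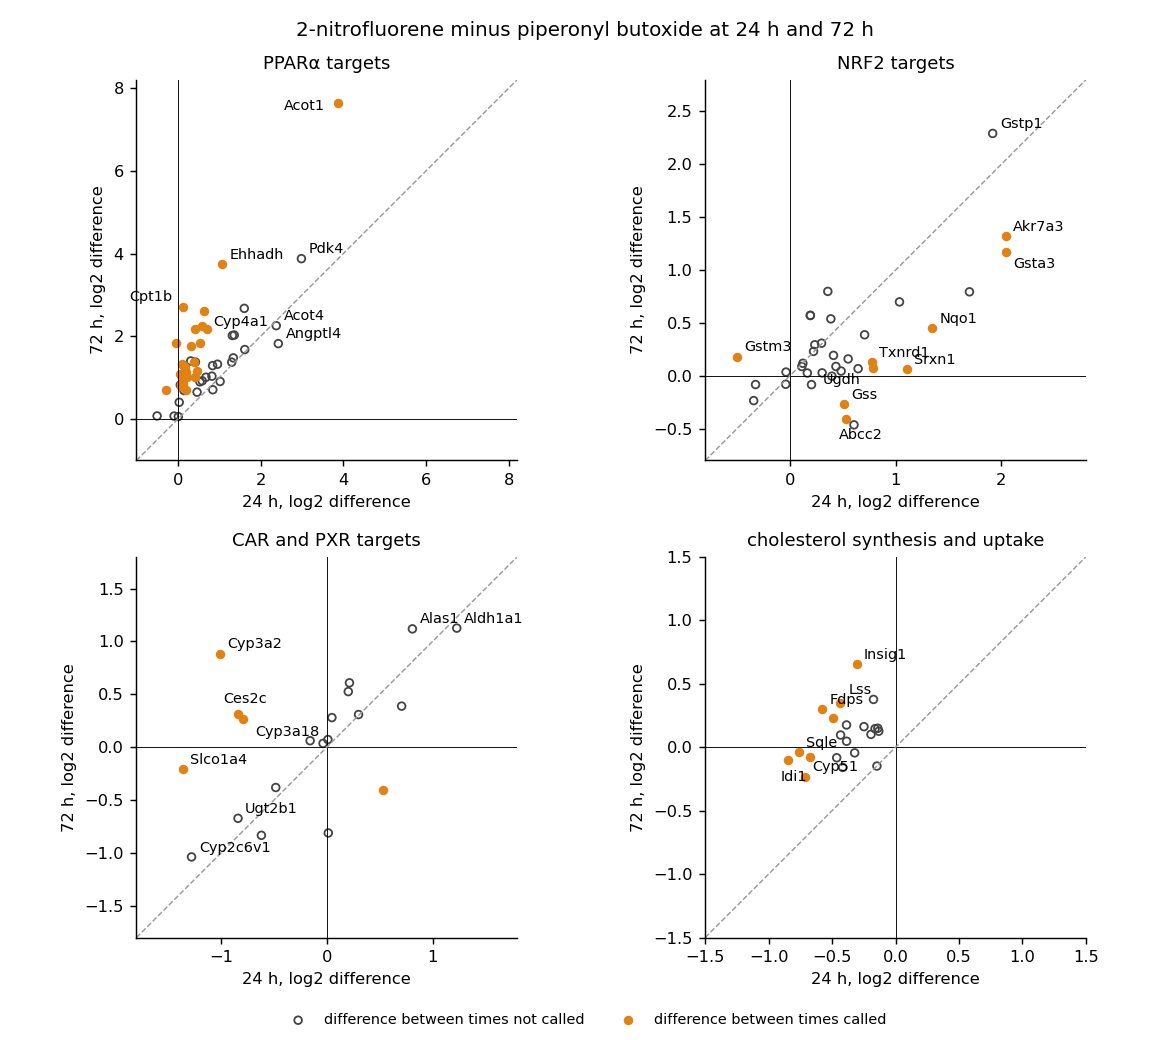
Log2 difference, 2-nitrofluorene minus piperonyl butoxide, at 24 h (horizontal axis) and at 72 h (vertical axis) for each tested gene of 4 lists, orange where the difference between the times was called, with the line of equality dashed; each panel has its own scale. Most PPARα genes lie above the line and most of the large NRF2 rises below it, while Cyp3a2 moves from -1.01 to 0.88.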

How the data were processed

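Total RNA was biotin-labelled, and each sample had its own Affymetrix array. Per the submitters' processing notes the deposited values were made with MAS5 by the authors; the notes give no version or settings. The deposited table holds a linear intensity for each of 31099 probe sets, and each of the arrays used had a mean close to 100 once the top and bottom 2% were left out (99.99). MAS5 subtracts mismatch signal, which makes dim values noisy. The number of value columns left unused was 0.

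From these, 57 control probe sets were left out and before log2 any value under 3.117 (20th percentile) was set to it. Probe sets with a mean over the 6 arrays at or above the table median (19.74) were tested, 15240 of 31042. Folds of genes near the floor are understated. limma 3.58.1 in R 4.3.3 fitted compound and D number (2 groups, 3 pairs), with eBayes on an intensity trend and Benjamini-Hochberg adjustment over all 15240 at 0.05. The same fit served 72 h, and 12 arrays gave the difference of the contrasts. The fit was tested on simulated arrays with known changes. Their noise was drawn independently for each probe set and array, so the simulation does not cover noise shared across probe sets.

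The D numbers were taken as pairs: deviations from the group means correlated at 0.587, 0.439 and 0.444 between same-numbered arrays at 24 h and at 0.553, 0.588 and 0.577 at 72 h, and below 0 between all others. What a D number stands for is not stated, so the p-values refer to the spread between pairs. That spread is not taken from each probe set alone, because eBayes draws it toward that of other probe sets of like intensity. Without the intensity trend limma called 0 probe sets at 24 h.

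Gene names came from the platform annotation, updated by Entrez ID to RefSeq GRCr8 (20826 probe sets with 1 symbol, 436 with several, 9780 with none). A gene was represented by its brightest tested probe set. Cyp1b1, Cyp2b1 and Abcb1b were below the filter or had no probe set named for them alone. Named were the 15 largest called rises and 15 largest called falls with the same sign in all pairs, up to 5 called members of each of 19 lists and 32 fixed genes; other list members are given to complete a role. The members, lists and tests were chosen with earlier results of these data known. Alternatives changed the block, floor, filter, normalization, trend, arrays in the fit and pairs.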

Additional observations from a re-analysis of the deposited data

Results flagged for a closer look

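For 31 of the 91 named genes the difference between the compounds itself differed between 72 h and 24 h by limma. The adjusted p was under 0.05 for the difference of the contrasts. Of all 9080 genes tested, 2.22% had such a change upward and 0.507% downward. Many named genes were chosen by the size of their difference at 24 h. That difference is part of the value tested here, so the count is not an independent test. Each value below is the log2 difference at 72 h minus that at 24 h. Fatty acid genes changed upward, with Acot1 at 3.77, Ehhadh at 2.68, Cpt1b at 2.58, Cyp4a1 at 1.96 and Fabp1 at 1.75. Antioxidant genes changed downward, with Nqo1 at -0.89, Gsta3 at -0.87, Akr7a3 at -0.72 and Txnrd1 at -0.65, and so did Defb1 at -1.03 and Plk2 at -0.53. Cholesterol genes changed upward, with Fdps at 0.88, Idi1 at 0.75, Sqle at 0.72, Msmo1 at 0.60 and Cyp51 at 0.48. Among desaturases Scd2 changed by 2.37 and Fads1 by 1.01. Among P450 enzymes, esterases and carriers the changes were 1.89 for Cyp3a2, 1.69 for Cyp2e1, 1.16 for Ces2c, 1.15 for Slco1a4, 1.11 for Cyp8b1, 1.00 for Slco1a1, 0.99 for Abca8a and 0.66 for Abcb11. The inflammatory genes Ltb (1.35), Crp (1.04) and Cd14 (0.78) changed upward, as did the chaperones Pdia6 (0.48) and Hsp90b1 (0.43). What these changes rest on was not tested.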

How the results depend on the processing

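The block by D number decided most calls. Without it 16 probe sets were called at 24 h, 135 at 72 h and 0 for the difference of the contrasts (limma, 845 at an unadjusted p under 0.05), and with 24 groups of all 72 arrays and no block 4, 40 and 0 (172 unadjusted). Without an intensity trend the counts were 0, 583 and 1, and without the filter 0, 0 and 0 (3488, 4449 and 3185 unadjusted). Chosen after seeing the data, no filter with 16 added to the intensity gave 140, 860 and 106, and no filter with 36 arrays 827 at 72 h and 81 for the difference. The 36-array block gave 1088 and 143 for those 2. Leaving out 1 pair gave 12 to 1014 calls at 24 h, 814 to 2238 at 72 h and 99 to 302 for the difference. From the 36-array fit only the arrays of the 2 compounds with that D number were left out, at both times. Its controls and other compounds stayed. There the counts were 315, 309 and 146 at 24 h (without pair 1, 2 and 3). They were 382, 808 and 333 at 72 h and 30, 44 and 42 for the difference. The floor, log2 of intensity plus 16, quantile normalization and the other filter kept all 3 counts within 1.5 times. Of the 91 named genes 79 were called; 65 of these kept the call with 36 arrays, 9 without pair 1 and 9 without the block. Genes not called changed sign. Cpt1b was -0.16 without pair 1 and -0.043 without pair 3 (0.61 without pair 2), Cyp1a2 -0.039 without pair 1 and -0.049 without pair 2 (0.11 without pair 3), Mdm2 -0.10 without pair 1 (0.18 without pair 3), Ccng1 -0.030 without pair 2 (0.24 without pair 3), Ddit3 0.023 without pair 1 and 0.020 without pair 3 (-0.20 without pair 2), and Alb 0.017 under quantile normalization and 0.00050 without pair 3 (-0.047 without pair 1), with the same values under 36 arrays. Apart from the fewer pairs in leave-one-out fits, the cause was not tested. Signal over background limits dim probe sets, which were not tested.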
